A study of Saccharomyces cerevisiae with 12 samples.

Results

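The large-subunit ribosomal protein genes of budding yeast, those whose standard name in the R64 reference begins with RPL and a digit, were followed in 12 poly(A) RNA libraries from 4 groups of Saccharomyces cerevisiae. There were 76 such genes among the 7126 genes counted, and all 76 were among the 6040 genes that passed the filter on low counts and were tested. They form 33 pairs of duplicated genes, with copies named A and B, and 10 genes present once. Both strains were derivatives of BY4741, a MATa strain with the alleles ura3-delta 0, met15-delta 0, leu2-delta 0 and his3-delta 1, in which the chromosomal SPT4 gene carried a TAP tag with the kanMX4 marker. The mutant, Spt4-AA, had the changes T42A and S43A in Spt4-TAP, and the wild type carried Spt4-TAP without them. Each strain grew to log phase in YPD at 30 degrees and was taken after 15 min in 0.4 M NaCl or without stress, each of the 4 groups having 3 biological replicates. Spt4 is a subunit of the Spt4-Spt5 elongation factor that travels with RNA polymerase II, and the study examined the changed residues as targets of the stress kinase Hog1. Gene counts do not check a change of codons, and the number of independent clones of the mutant is not given in the sources used here.

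The large subunit of the ribosome, 60S, joins amino acids at its peptidyl transferase centre and lets the new chain out through an exit tunnel. Its proteins are encoded in yeast by some of the most abundant mRNAs, most of them by a pair of genes left over from an ancient genome duplication, and the copies often encode identical or nearly identical proteins. Transcription of these genes depends on Rap1, Fhl1 and Ifh1, and it is known to fall transiently when cells meet stress.

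The libraries held 12903162 to 21909524 counts on genes. Replicates 1 and 2 of stressed Spt4-AA cells carried library numbers apart from those of the other 10 libraries, which ran in sequence but for the gap these left. The main fold changes and medians, and some counts of calls, are also given with a model term for these 2 libraries. In this fit, called the term for the library numbers, replicate 3 alone stands for stressed Spt4-AA cells. LEU2, MET17 and URA3, genes deleted in the background, had 0 to 2 counts together in 11 libraries and 139 in replicate 2 of stressed Spt4-AA cells. The 6 a-specific genes had counts in all 12 libraries, as in MATa cells. The alpha-specific genes MF(ALPHA)1 and STE3 had 0 to 8 and 18 to 83 counts, while SAG1, a further gene on that list, had 505 to 854. No 2 replicates agreed within sampling noise, the lowest chi-square per degree of freedom being 6.31.

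Several members differ so little from their copy that reads of 50 bases often cannot tell them apart. The extreme cases are shown here, with coding sequences from RefSeq R64, 5′ to 3′, and the differing bases in capitals. RPL41A and RPL41B (chromosome IV, 130407 to 130484 and 221724 to 221801, both on the minus strand, 1 exon each) encode the shortest ribosomal protein, which forms a bridge to the small subunit. They differ at 1 of 78 coding bases, and 9 of the 29 windows of 50 bases in each were unique in the genome.
RPL41A: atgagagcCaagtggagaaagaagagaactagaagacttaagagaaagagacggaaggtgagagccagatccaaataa
RPL41B: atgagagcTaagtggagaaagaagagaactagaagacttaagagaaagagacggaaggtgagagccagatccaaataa

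RPL1A (chromosome XVI) and RPL1B (chromosome VII), which encode the protein of the L1 stalk beside the tRNA exit site, differ at 4 of 654 coding bases. The first 100 bases, chrXVI:135790-135889 and chrVII:254641-254740 on the plus strand, hold 2 of these.
RPL1A: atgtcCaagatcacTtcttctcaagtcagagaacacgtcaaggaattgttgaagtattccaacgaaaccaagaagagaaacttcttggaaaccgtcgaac
RPL1B: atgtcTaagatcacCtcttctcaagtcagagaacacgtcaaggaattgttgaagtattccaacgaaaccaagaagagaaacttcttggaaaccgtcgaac

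For the RPL1 pair 19.0% of windows were unique, for RPL35 19.1%, for RPL4 27.3%, for RPL41 31.0%, for RPL11 39.1% and for RPL7 43.0%. These 12 genes are reported as uncertain between copies, because reads in shared windows do not map to 1 place. By the methods only uniquely mapping reads were counted. Counts were still high for some of these genes, such as 40408 for RPL1A in unstressed wild type replicate 1. How shared reads were handled was not tested. In the other 64 genes at least 50% of windows were unique. RPL39 was the short gene with the largest strain difference upon stress, and none of its windows is shared. It encodes a small protein inside the exit tunnel and lies on chromosome X, 75933 to 76474, plus strand, with 1 intron. Its coding sequence, joined across the intron, has 156 bases.
RPL39: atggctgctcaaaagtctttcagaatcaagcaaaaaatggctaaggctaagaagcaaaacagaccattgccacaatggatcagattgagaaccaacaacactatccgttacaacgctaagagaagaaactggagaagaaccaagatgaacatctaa

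Levels were compared between genes as normalised CPM (counts scaled to a common library size by the TMM method) per kb of coding sequence. Over the 76 genes the median level was 1145 in stressed Spt4-AA cells, 509 in stressed wild type cells, 2941 in unstressed Spt4-AA cells and 3155 in unstressed wild type cells. The genes counted as 1 family spanned a wide range of levels in every group. RPL22B was the lowest in all 4 groups, with 146 ± 32.6, 46.3 ± 3.4, 224 ± 33.8 and 274 ± 35.6 normalised CPM per kb (SD, n = 3) in that order of groups. RPL30, whose protein is known to repress the splicing of its own transcript, was the highest in unstressed wild type cells with 8857 ± 453, and the highest was 32.3-fold above the lowest. RPL15B was the next lowest in 3 groups and the third in stressed wild type cells, at 158, 119, 292 and 303 normalised CPM per kb in the same order. In stressed wild type cells RPL31B, at 85.0 ± 11.3, lay between them. RPL10, whose protein is among the last to join the 60S subunit, stood at 5020 ± 1368 in stressed Spt4-AA cells and, as the highest gene of its group, at 2269 ± 342 in stressed wild type cells. The spread between genes, as SD of the log2 level, was 1.11 in stressed Spt4-AA cells, 1.03 in stressed wild type cells, 0.92 in unstressed Spt4-AA cells and 0.90 in unstressed wild type cells.

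**Figure D1:**
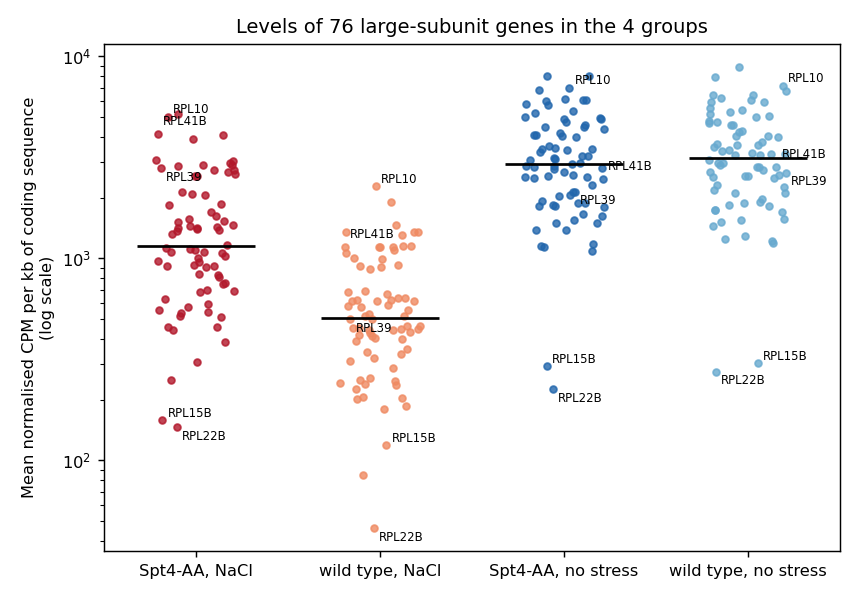
Mean normalised CPM per kb of coding sequence (log scale) of the 76 large-subunit genes in the 4 groups, 1 point per gene, with the group median as a bar. The medians are 1145, 509, 2941 and 3155 from left to right, and RPL22B is the lowest point in every group.

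In Spt4-AA cells, 72 of the 76 genes fell upon osmostress and none rose past the threshold of an adjusted p under 0.05 (edgeR's quasi-likelihood test, Benjamini-Hochberg adjustment over 6040 genes; DESeq2 also called 72 lower and 0 higher, and no gene was higher at an unadjusted p under 0.05). Among all genes tested 33.4% were lower and 34.9% higher. The fall was at least 2-fold for 58 of them, against a background of 14.9%, and the libraries of stressed and unstressed cells did not overlap for 71, against a background of 34.1%. The median log2 fold change (log2FC) was -1.33, with single genes between -2.24 and 0.75 and a median standard error of 0.18. The median over all genes tested was 0.01. Under the term for the library numbers the median was -1.83, against 0.03 over all genes tested, and single genes lay between -2.71 and -0.84. Counts are shares of a library, so that less mRNA of these genes and more mRNA of others cannot be told apart here. A fall in all cells and a fall in only some cells cannot be told apart either.

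In wild type cells all 76 genes fell, 75 of them at least 2-fold, and for every gene the 3 stressed libraries lay below the 3 unstressed ones. Among all genes tested 33.9% were lower, 18.7% were lower by 2-fold and 36.1% had libraries that lay apart in this direction. The median log2FC was -2.57, with a range of -3.92 to -0.96, against 0.03 over all genes tested. Large-subunit genes took 6.29, 6.58 and 4.61% of all gene counts in the stressed Spt4-AA libraries, and 11.96, 11.90 and 12.05% in the unstressed ones. Their share in wild type cells was 3.07, 2.76 and 2.70% upon stress, against 12.4, 12.4 and 12.6% without it. Set against the mean of unstressed wild type cells, the family's median in stressed Spt4-AA cells was -1.27, -1.11 and -1.92 on the log2 scale, and in stressed wild type cells -2.38, -2.60 and -2.72. Replicate 3 of stressed Spt4-AA cells was thus the lowest of its group, and above each stressed wild type library.

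The 4 deepest falls in each strain were those of RPL31B, RPL16A and RPL33B, joined by RPL24B in Spt4-AA cells and by RPL13A in wild type cells, each the less abundant copy of its pair in unstressed wild type cells. The fifth in Spt4-AA cells, RPL23B (-1.80), was the more abundant copy of its pair. RPL31B encodes a protein at the rim of the exit tunnel (chromosome XII, 931065 to 931755, minus strand, 1 intron). It had 98.6, 95.3 and 61.5 normalised CPM in stressed Spt4-AA cells, against 475, 341 and 388 in unstressed ones, and 30.4, 24.7 and 32.1 in stressed wild type cells, against 499, 429 and 389 in unstressed ones. The groups did not overlap in either strain. Its log2FC was -2.24 ± 0.18 (SE) in Spt4-AA cells (adjusted p = 4.9e-08) and -3.92 ± 0.20 in wild type cells (adjusted p = 1.34e-10), a 15.1-fold fall in the wild type.

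RPL16A (chromosome IX, 98527 to 99416, minus strand, 1 intron) had 324, 368 and 304 normalised CPM in stressed Spt4-AA cells, against 1501, 1284 and 1387 in unstressed ones. Wild type cells had 152, 138 and 161 upon stress, against 1489, 1548 and 1443 without it. Its log2FC was -2.07 ± 0.12 in Spt4-AA cells (edgeR, adjusted p = 7.73e-10) and -3.31 ± 0.12 in wild type cells (adjusted p = 3.89e-12). RPL33B fell by 2.08 ± 0.12 on the log2 scale in Spt4-AA cells and by 3.23 ± 0.13 in wild type cells. RPL13A was the fourth in the wild type, with log2FC -1.75 ± 0.16 in Spt4-AA cells and -3.09 ± 0.17 in wild type cells, and RPL24B, whose protein lies at a bridge between the subunits, the fourth in Spt4-AA cells, with -1.92 ± 0.15 and -2.81 ± 0.15. Each of these falls passed the test in both strains. The log2FC in Spt4-AA cells with the term for the library numbers was -2.71 for RPL31B, -2.19 for RPL16A, -2.35 for RPL33B, -2.18 for RPL13A and -2.36 for RPL24B, all called.

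At the other end, 4 genes stood apart in the wild type by a small fall. RPL10 (chromosome XII, 282927 to 283592, plus strand, no intron) had 3520, 4152 and 2357 normalised CPM in stressed Spt4-AA cells, against 4234, 4949 and 4816 in unstressed ones, and 1762, 1455 and 1317 in stressed wild type cells, against 4424, 5020 and 4836 in unstressed ones. Its log2FC was -0.48 ± 0.19 in Spt4-AA cells (edgeR, adjusted p = 0.0332, lost with only the groups compared, adjusted p = 0.104, and on leaving out any of 4 libraries of that strain: unstressed replicate 2 or 3, or stressed replicate 1 or 3, with adjusted p = 0.0901, 0.0794, 0.0632 and 0.0792) and -1.66 ± 0.19 in wild type cells (adjusted p = 1.77e-06). Its log2FC in Spt4-AA cells was -0.99 with the term for the library numbers (edgeR, adjusted p = 0.000356). RPL15B (chromosome XIII, 509734 to 510348, minus strand, no intron) had 99.6, 118 and 74.0 normalised CPM in stressed Spt4-AA cells, against 189, 169 and 181 in unstressed ones. Wild type cells had 77.6, 71.2 and 70.2 upon stress, against 178, 194 and 186 without it. Its log2FC was -0.89 ± 0.13 in Spt4-AA cells, or -1.28 with the term, and -1.35 ± 0.13 in wild type cells. It is the member for which the responses of the strains lay closest, and the test of their difference missed the threshold (0.46 ± 0.18, adjusted p = 0.0811). It was 0.07 with the term (adjusted p = 0.822), and 0.62 without replicate 3 of stressed Spt4-AA cells, where it passed (adjusted p = 0.00194).

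**Figure D2:**
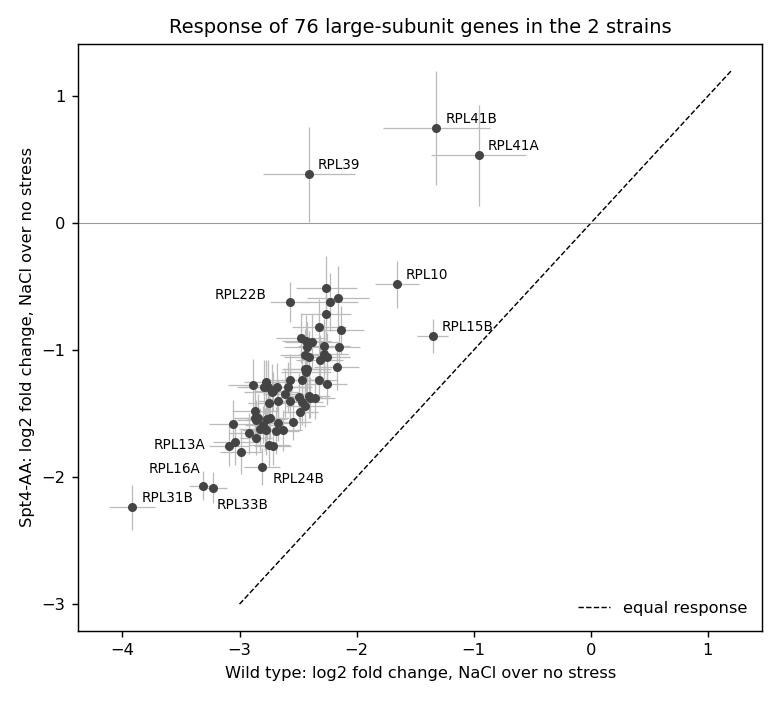
Log2 fold change of each of the 76 large-subunit genes upon 0.4 M NaCl in Spt4-AA cells (vertical axis) and in wild type cells (horizontal axis), with standard errors as bars. All points lie above the dashed line of equal response, and RPL39, RPL41A and RPL41B lie above 0 on the vertical axis without passing the test there.

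The remaining outliers were RPL41A, RPL41B and RPL39, the genes with the shortest coding sequences. RPL41B had 461, 409 and 99.5 normalised CPM in stressed Spt4-AA cells, against 136, 286 and 155 in unstressed ones, and 106, 69.4 and 91.2 in stressed wild type cells, against 195, 258 and 211 in unstressed ones. RPL41A had 174, 146 and 47.3 in stressed Spt4-AA cells, against 63.6, 122 and 68.1 in unstressed ones, and 52.5, 33.3 and 60.1 in stressed wild type cells, against 83.1, 117 and 83.8 in unstressed ones. RPL39 had 553, 620 and 132 in stressed Spt4-AA cells, against 333, 348 and 319 in unstressed ones, and 97.0, 68.1 and 69.4 in stressed wild type cells, against 473, 395 and 377 in unstressed ones. In all 3 genes, replicates 1 and 2 of stressed Spt4-AA cells were above every unstressed library of that strain and replicate 3 was below every one.

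Their log2FC in Spt4-AA cells was 0.75 ± 0.45 for RPL41B (edgeR, adjusted p = 0.155), 0.53 ± 0.40 for RPL41A (adjusted p = 0.248) and 0.38 ± 0.37 for RPL39 (adjusted p = 0.373). The direction rested on the 2 libraries. With the term for the library numbers RPL41B was at -0.95 (adjusted p = 0.0289), RPL41A at -0.84 and RPL39 at -1.34 (adjusted p = 4.69e-05), and without replicate 3 all of these genes passed as higher, at 1.18, 0.92 and 0.81. In wild type cells RPL39 fell by 2.41 ± 0.39 on the log2 scale (adjusted p = 7.3e-05) and RPL41B by 1.32 ± 0.45 (adjusted p = 0.0208, not called on leaving out any of 3 wild type libraries: unstressed replicate 2 or stressed replicate 2 or 3, with adjusted p = 0.0614, 0.0782 and 0.0852). RPL41A was the weakest call, at -0.96 ± 0.40 (adjusted p = 0.0479), and it was lost with DESeq2 (adjusted p = 0.0642), library totals (-0.60, adjusted p = 0.159), the replicate number as a block (adjusted p = 0.11), no filter (adjusted p = 0.0823) and the coding-length trend removed (-0.56, adjusted p = 0.0918). It was also lost on leaving out any 1 of the 6 wild type libraries or unstressed Spt4-AA replicate 1 (adjusted p = 0.058 to 0.137).

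Over the 76 genes, replicate 1 over replicate 3 of stressed Spt4-AA cells fell with coding length (log2 values, Pearson's r = -0.73, Spearman's rho = -0.53). For replicate 2 over replicate 3 these values were -0.40 and -0.02, so that no relation was seen by rank. For the 5 genes with under 250 coding bases (RPL41A, RPL41B, RPL39, RPL29 and RPL38, a limit set after the values were seen), the median ratio of replicate 1 to replicate 3 was 3.67, and for the other 71 genes it was 1.55. The ratio of replicate 2 to replicate 3 was 3.08 and 1.75. Among protein-coding genes outside the family, the ratio of replicate 1 to replicate 3 was 1.23 for 136 genes under 250 bases and 0.99 for 5448 longer ones. The highest library was more than 2-fold above the lowest for 17 of the 76 genes in stressed Spt4-AA cells, 0 in stressed wild type cells, 1 in unstressed Spt4-AA cells and 0 in unstressed wild type cells. With a trend of level with coding length removed in each library, an alternative chosen after seeing the data, the family's median was -1.39 in the Spt4-AA response and -2.43 in the wild type response. The part of length in these values was not tested further.

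**Figure D3:**
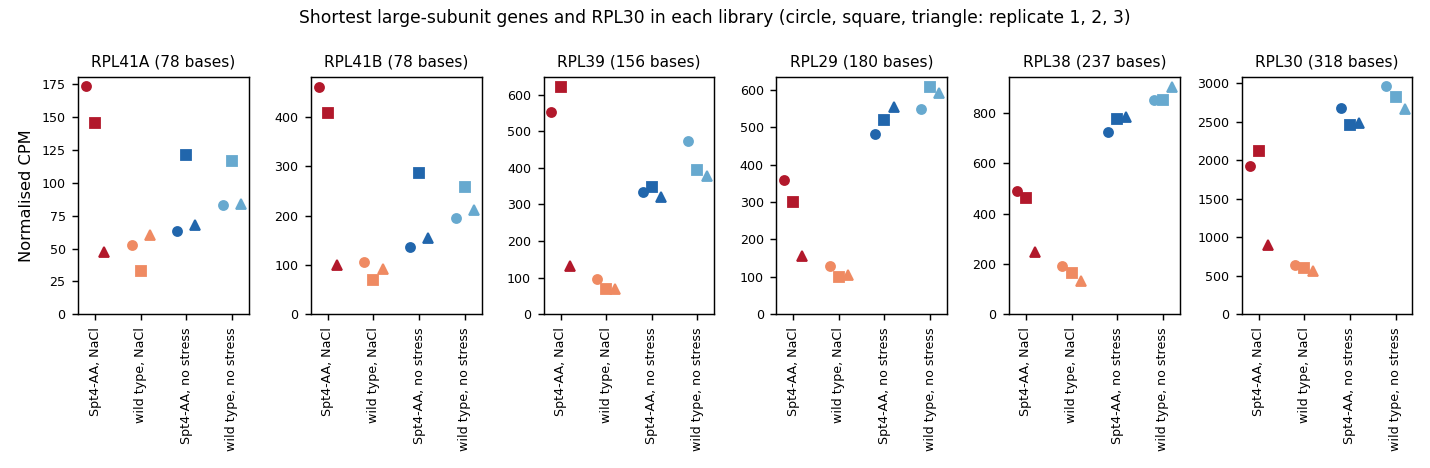
Normalised CPM in each of the 12 libraries for the 5 large-subunit genes with under 250 coding bases and for RPL30, with symbols for replicate 1, 2 and 3. For RPL41A, RPL41B and RPL39 replicates 1 and 2 of stressed Spt4-AA cells lie above the unstressed Spt4-AA libraries, while replicate 3, such as 132 for RPL39, lies below them.

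Under osmostress, all 76 genes were higher in Spt4-AA than in wild type cells, 63 of them by at least 2-fold. Among all genes tested 24.3% were higher, and 7.75% by 2-fold. The median log2FC was 1.21, with a range of 0.41 to 2.48 and a median standard error of 0.18, against -0.02 over all genes tested. The libraries of the strains did not overlap for 73 genes, against 25.3% of all genes, and overlapped for RPL41A, RPL41B and RPL15B. Under the term, which leaves 1 stressed Spt4-AA library, the median was 0.68, against -0.01 over all genes tested. This median was below the 2-fold limit of 1 on the log2 scale. Single genes then lay between -0.04 (RPL41A) and 1.23 (RPL22B).

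RPL39 had the largest difference between the stressed strains (2.48 ± 0.39, adjusted p = 0.000197 by edgeR), and with the term for the library numbers it was 0.75. RPL41B followed with 1.86 ± 0.46 (adjusted p = 0.00604), which became 0.17 with the term (adjusted p = 0.769). RPL22B, the minor copy of a pair whose protein is known to restrain splicing of the RPL22B transcript (chromosome VI, 64243 to 64932, minus strand, 1 intron), changed less with the term. It had 61.1, 60.6 and 40.0 normalised CPM in stressed Spt4-AA cells, against 16.6, 16.1 and 18.5 in stressed wild type cells. The groups lay apart, the log2FC was 1.66 ± 0.17 (adjusted p = 3.49e-06), and it was 1.23 with the term.

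The smallest strain differences upon stress were those of RPL15B, RPL24B, RPL19A and RPL35A. RPL15B was 0.41 ± 0.13 higher on the log2 scale (edgeR, adjusted p = 0.0197). This call was lost with library totals, with ENO1 scaling, with the term, with only the groups compared and without any of 4 libraries (stressed wild type replicate 2 or 3 and stressed Spt4-AA replicate 1 or 2), with adjusted p between 0.0538 and 0.937. RPL24B was at 0.78 ± 0.14 and RPL35A, a tunnel-rim gene of a pair with few unique windows, at 0.91 ± 0.17. Neither was called with the term, at 0.34 each (adjusted p = 0.0659 and 0.0595). RPL19A, a tunnel-rim and bridge gene, was at 0.91 ± 0.15 and remained called with it at 0.46.

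**Figure D4:**
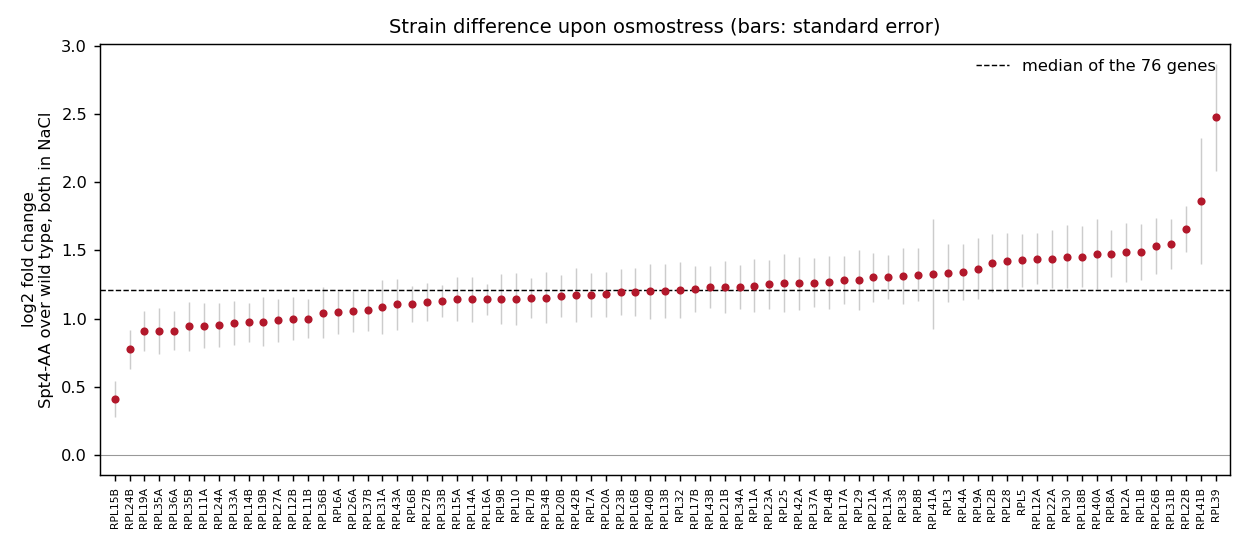
Log2 fold change of Spt4-AA over wild type cells, both in NaCl, for 75 of the 76 large-subunit genes in rising order, with the standard error as bars and the median of 1.21 over all 76 as a dashed line. All points lie above 0, from RPL15B at 0.41 to RPL39 at 2.48.

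Without stress no large-subunit gene passed the test between the strains. The count was 0 of 76 in either direction with edgeR and with DESeq2, and 0 at an unadjusted p under 0.05 with edgeR, where 0.563% of all genes tested were lower and 0.265% higher. The median log2FC was -0.05, with a range of -0.32 to 0.05 and a median standard error of 0.18. The lowest values were those of RPL39 (-0.32 ± 0.37), RPL22B (-0.29 ± 0.16), RPL27B (-0.21 ± 0.13) and RPL41B (-0.20 ± 0.45), and the highest that of RPL6A (0.05 ± 0.16), followed by RPL34B, RPL23A and RPL16B at 0.03, 0.03 and 0.02. All were within 2 standard errors of 0. For 9 genes the Spt4-AA libraries all lay below those of the wild type, where 9.47% of all genes did so.

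The response of the strains differed for 74 of the 76 genes, each with the higher log2FC in Spt4-AA cells, where 15% of all genes tested had a difference in this direction. The difference in response is the log2FC in Spt4-AA cells minus that in wild type cells, and its median was 1.27, against -0.01 over all genes. RPL41A (1.49 ± 0.56, adjusted p = 0.0702) and RPL15B missed the threshold. The largest values were those of RPL39 (2.79 ± 0.54), RPL41B (2.07 ± 0.64, edgeR, adjusted p = 0.0327) and RPL22B (1.94 ± 0.23, adjusted p = 4.28e-05). The RPL41B call was lost without any of 9 libraries, those of all 6 wild type samples, unstressed Spt4-AA replicates 1 and 3 and stressed Spt4-AA replicate 1 (adjusted p = 0.0551 to 0.109). It was also lost with ENO1 scaling, no filter, the replicate number as a block and the coding-length trend removed (edgeR, adjusted p = 0.0617 to 0.0915). Among called genes the smallest were those of RPL24B (0.89 ± 0.20), RPL19A (0.96 ± 0.21) and RPL36A (0.97 ± 0.20). The RPL24B call was lost with ENO1 scaling (0.54, adjusted p = 0.151). With the term for the library numbers the median was 0.73, against -0.01 over all genes tested. RPL39, RPL22B, RPL19A and RPL36A were then at 1.07, 1.52, 0.52 and 0.60, and RPL41B and RPL24B at 0.37 and 0.45. The order of the genes was similar in the responses of the strains, which share no library, with Pearson's r = 0.82 and Spearman's rho = 0.83 over the 76 genes. Genes are not independent replicates, and the points share gene length and base composition.

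The genes were also read by the roles of their proteins within the 60S subunit, and every group held genes that fell in both strains. Genes of the peptidyl transferase centre (RPL2A, RPL2B, RPL3, RPL4A, RPL4B, RPL10 and RPL28) fell in 7 of 7 cases in both strains, with a median log2FC of -1.06 in Spt4-AA cells and -2.42 in wild type cells. RPL3, which encodes a protein reaching into that centre, had 3213, 4515 and 2300 normalised CPM in stressed Spt4-AA cells and 1585, 1268 and 1119 in stressed wild type cells. Its difference between the strains upon stress was 1.34 ± 0.21, or 0.80 with the term for the library numbers. The 3 genes of the particle with 5S RNA (RPL5, RPL11A, RPL11B) fell in both strains, with medians of -1.37 in Spt4-AA cells and -2.42 in wild type cells.

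Of the 12 exit tunnel genes 11 fell in Spt4-AA cells and 12 in wild type cells, with medians of -1.41 and -2.70 for these strains. Both the deepest fall, that of RPL31B, and RPL39 belong to this group. The 10 genes of the factor-binding side and the stalks all fell in both strains (medians -1.28 in Spt4-AA cells and -2.47 in wild type cells). Of the 6 bridge genes 4 fell in Spt4-AA cells, all but the RPL41 pair, and 6 in wild type cells. Of the 11 genes known to be dispensable for growth 8 fell in Spt4-AA cells, with a median of -0.93, and 11 in wild type cells, with a median of -2.43. Upon stress every gene of each group was higher in Spt4-AA than in wild type cells, as all 76 were. The medians in Spt4-AA cells with the term were -1.66 for the peptidyl transferase centre, -1.88 for the 5S particle, -2.004 for the tunnel, -1.76 for the factor side and stalks, -2.20 for the bridges and -1.70 for the dispensable genes. Between the stressed strains the medians of these groups were then 0.76, 0.63, 0.59, 0.67, 0.37 and 0.63, against -0.01 over all genes tested.

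The 10 single-copy genes (RPL3, RPL5, RPL10, RPL25, RPL28, RPL29, RPL30, RPL32, RPL38 and RPL39) had a median log2FC of -0.93 in Spt4-AA cells, with a range of -1.24 to 0.38 and 9 called lower, and 2 of them fell by 2-fold. Of the 66 duplicated genes 63 were lower and 56 by 2-fold, with a median of -1.37. In wild type cells the medians were -2.40 for single-copy genes, with a range of -2.57 to -1.66, and -2.65 for duplicated genes. The strain difference upon stress had a median of 1.32 for single-copy and 1.19 for duplicated genes. Under the term these medians were 0.63 and 0.69, and those of the Spt4-AA response were -1.56 and -1.93, both beyond the 2-fold limit. The 52 genes with an intron in the coding sequence had medians of -1.38 in Spt4-AA cells and -2.61 in wild type cells, and the 24 without one -1.21 and -2.43. For the 12 genes with under 50% unique windows the medians were -1.26 in Spt4-AA cells and -2.41 in wild type cells, and for the other 64 they were -1.33 and -2.60. With the term the Spt4-AA medians were -1.93 for genes with an intron, -1.72 for those without, -1.77 for the 12 genes and -1.83 for the other 64.

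Paralog pairs were compared by the log2 ratio of copy A to copy B within each library, which no scaling between libraries changes. The ratio was tested with limma over all 61 pairs of genes whose names differ only by a final A or B, of which 33 are large-subunit and 24 small-subunit pairs, so that most of the background is ribosomal. In unstressed wild type cells the most unequal pairs were RPL15 (copy A 14.1-fold above copy B) and RPL22 (copy A 12.95-fold above). The most equal were RPL1, RPL21 and RPL12, where the major copy stood 1.02-fold, 1.02-fold and 1.06-fold above the other. Without stress, 0 of the 33 pairs differed between the strains with limma, and 1 did at an unadjusted p under 0.05, where 1.64% of all 61 pairs passed. The largest values there were those of RPL22 (0.26), RPL27 (0.19), RPL16 (-0.13) and RPL6 (0.11).

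Osmostress shifted the ratio of 22 of the 33 pairs in Spt4-AA cells and of 21 in wild type cells. Of all 61 pairs 73.8% and 63.9% passed in these strains, so neither count stood above the share of all pairs. Of the shifted large-subunit pairs, 17 were shifted in both strains, always in the same direction. This is 77.3% of the Spt4-AA list and 81% of the wild type list. In Spt4-AA cells 14 pairs passed with the term for the library numbers. RPL16, which had the largest shift in Spt4-AA cells, moved towards copy B. Copy A gave 14.24, 13.98 and 18.89% of the pair's reads in stressed Spt4-AA cells, against 29.88, 26.09 and 27.35% in unstressed ones. In the wild type it gave 14.94, 14.10 and 18.62% upon stress, against 30.65, 29.23 and 28.89% without it. The change of the log2 ratio was -1.06 ± 0.15 in Spt4-AA cells (limma, adjusted p = 0.000165; -0.72 with the term, adjusted p = 0.00653) and -1.16 ± 0.15 in wild type cells (adjusted p = 4.71e-05).

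RPL33 moved towards copy A. That copy gave 85.4, 86.6 and 83.2% of the pair's reads in stressed Spt4-AA cells, against 76.1, 78.4 and 75.9% in unstressed ones, and 88.0, 86.7 and 85.2% in stressed wild type cells, against 75.2, 78.0 and 77.0% in unstressed ones. The change was 0.79 ± 0.11 in Spt4-AA cells, or 0.58 with the term, and 0.98 ± 0.11 in wild type cells. RPL22 had the next shift in Spt4-AA cells, at -0.72 ± 0.20 (limma, adjusted p = 0.00932; -0.96 with the term), towards its minor copy. Shifts towards the more abundant copy were the more common kind, with 17 against 5 in Spt4-AA cells, though 8 against 6 with the term for the library numbers, and 15 against 6 in wild type cells. The more abundant copy was taken from unstressed wild type cells, so in the wild type this count shares libraries with its own definition. In the RPL23 pair the more abundant copy changed in both strains, copy A giving 52.7 ± 0.42% of the reads in stressed Spt4-AA cells against 42.95 ± 0.83% in unstressed ones, and 51.7 ± 1.26% in stressed wild type cells against 42.7 ± 1.40% in unstressed ones (SD, n = 3).

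Upon stress the ratio differed between the strains for 7 of the 33 pairs, where 26.2% of all 61 pairs passed. The shift itself differed for 6, where 18% did. Both counts were near the share of all pairs. Without replicate 3 of stressed Spt4-AA cells each count was 11, and without 1 of 5 other libraries (unstressed wild type replicate 1 or 2, stressed wild type replicate 1 or 2, unstressed Spt4-AA replicate 3) the second count was 3. RPL15 had the largest difference. RPL15A gave 90.3, 89.8 and 89.5% of the pair's reads in stressed Spt4-AA cells, against 85.2, 83.9 and 83.8% in stressed wild type cells. In unstressed cells it gave 92.8, 93.7 and 93.4% in Spt4-AA cells and 93.6, 93.3 and 93.3% in wild type cells. The stressed strains did not overlap, and their log2 ratios differed by 0.73 ± 0.06 (limma, adjusted p = 2e-05). The shift upon stress was -0.65 ± 0.06 in Spt4-AA cells and -1.40 ± 0.06 in wild type cells, and the difference of the shifts was 0.75 ± 0.09 (adjusted p = 0.000434). Under the term the shift in Spt4-AA cells was -0.71, the stressed strains differed by 0.67 and the shifts by 0.69, each called.

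RPL31 was next, with RPL31A at 80.1, 80.2 and 76.4% of the pair's reads in stressed Spt4-AA cells and 84.9, 84.7 and 82.7% in stressed wild type cells. The ratios of the stressed strains differed by -0.50 ± 0.12 (limma, adjusted p = 0.00941), and by -0.71 with the term (adjusted p = 0.0083). RPL26 and RPL41 differed by -0.44 each upon stress (adjusted p = 0.00706 and 0.0318), and with the term for the library numbers neither passed, at -0.21 and -0.18. The RPL41 call was also lost without stressed wild type replicate 3 or stressed Spt4-AA replicate 1 or 2 (adjusted p = 0.0861, 0.115 and 0.131). For the difference of the shifts the next pairs after RPL15 were RPL31 (-0.58 ± 0.17), RPL22 (-0.51 ± 0.29, adjusted p = 0.253) and RPL41 (-0.50 ± 0.19, adjusted p = 0.0864), which were at -0.79, -0.75 and -0.25 with the term, where RPL31 alone of these was called. The RPL31 call was lost without any of 6 libraries: unstressed wild type replicate 1 or 2, stressed wild type replicate 1 or 2, and unstressed Spt4-AA replicate 2 or 3 (adjusted p between 0.0766 and 0.097).

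**Figure D5:**
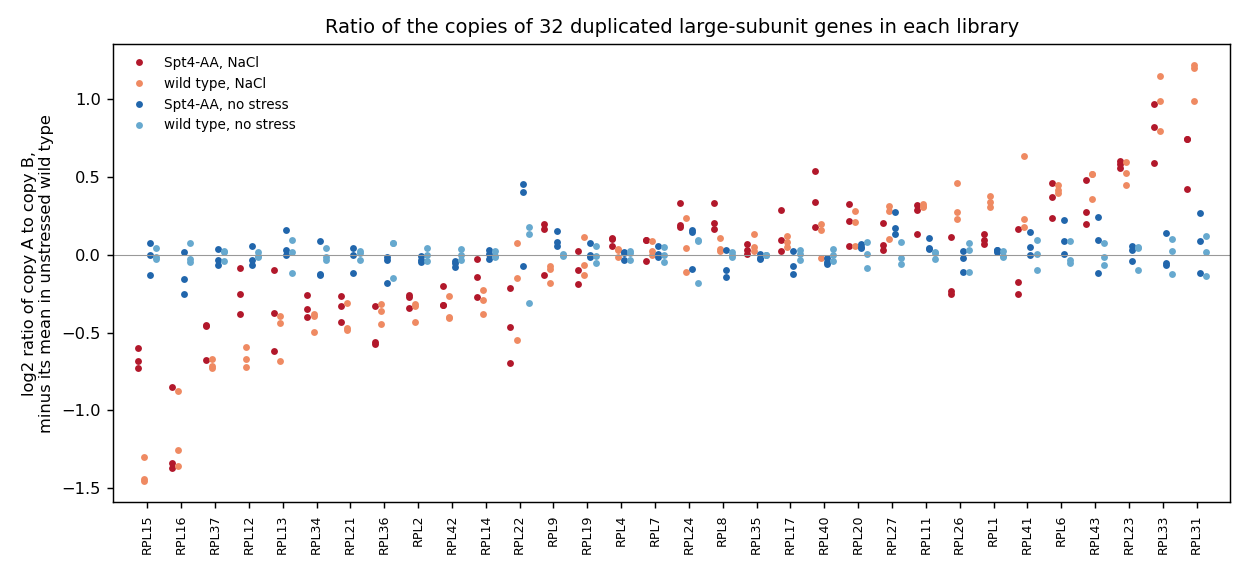
Log2 ratio of copy A to copy B for 32 of the 33 duplicated large-subunit genes, minus its mean in unstressed wild type cells, with 1 point per library and colours for the 4 groups. Pairs run from RPL15 (wild type shift -1.40) to RPL31 (1.138), and for RPL15 the stressed Spt4-AA libraries lie between the stressed wild type and the unstressed ones.

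Genes that work with the large-subunit family were read beside it. Of the 56 small-subunit genes 52 fell in Spt4-AA cells (median log2FC -1.19) and 56 in wild type cells (median -2.50), and all 56 were higher in Spt4-AA than in wild type cells upon stress (median 1.30). The ratio of large-subunit to small-subunit counts stayed between 1.17 and 1.26 in the 12 libraries. The 5 genes for stalk proteins and P0 were all lower in wild type cells and 4 of 5 in Spt4-AA cells. Of 34 genes for large-subunit proteins of the mitochondrial ribosome, which are not part of the 60S subunit, 8 were lower and 9 higher in Spt4-AA cells, and 5 were lower and 5 higher in wild type cells, with medians of 0.04 and 0.05 for these strains. Under the term, the small-subunit median was -1.78 in Spt4-AA cells and 0.66 between the stressed strains. The medians in Spt4-AA cells were then -1.51 for the stalk genes and -0.11 for the mitochondrial ones.

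Dedicated chaperones that escort single large-subunit proteins fell in 5 of 5 cases in both strains. SYO1, which carries Rpl5 and Rpl11, had log2FC -3.96 ± 0.15 in Spt4-AA cells and -6.9997 ± 0.19 in wild type cells. RRB1, which escorts Rpl3, had -3.37 ± 0.12 in Spt4-AA cells and -5.30 ± 0.14 in wild type cells. All 5 were higher in Spt4-AA than in wild type cells upon stress, SYO1 by 2.66 ± 0.23 and RRB1 by 2.02 ± 0.13 on the log2 scale. With the term SYO1 was higher by 2.75 and RRB1 by 2.003, and the median of the 5 was 0.73. Among 6 regulators of ribosomal protein genes, IFH1, a coactivator, fell by 2.36 ± 0.28 on the log2 scale in Spt4-AA cells and by 1.70 ± 0.28 in wild type cells. FHL1, which recruits it, had -1.51 ± 0.18 in Spt4-AA cells and -0.81 ± 0.17 in wild type cells, and RAP1 -0.70 ± 0.09 and -0.63 ± 0.09. CRF1, a corepressor, rose by 1.45 ± 0.21 in Spt4-AA cells and by 2.39 ± 0.20 in wild type cells. HMO1 and SFP1 passed in neither strain, with log2FC between -0.21 and 0.02. In Spt4-AA cells IFH1, FHL1, RAP1 and CRF1 were at -2.06, -1.51, -0.53 and 1.44 with the term, all called, and HMO1 and SFP1 at -0.34 and 0.13, not called.

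Since the members fell together, their promoters were searched for the letters ACCCNNACA, the core of the Rap1 site, on both strands within 500 bases before the start codon (RefSeq R64). The letters were found for 35 of 76 genes (46.1%), against 5.47% of 6000 promoters of that length. Of the 5 genes named above for the deepest falls, RPL13A and RPL33B held them, and RPL31B, RPL16A and RPL24B did not. The median log2FC was -1.37 for genes with the letters and -1.29 for those without in Spt4-AA cells, and -2.57 and -2.48 in wild type cells. Examples are shown with the match, or its reverse complement, in capitals, for RPL13A and RPL33B and, as contrasts, for RPL33A and RPL41B. Each is written on the strand of its gene and lies at chrIV:308113-308181 (RPL13A), chrXVI:281738-281806 (RPL33A), chrXV:779837-779905 (RPL33B, minus strand) and chrIV:222107-222175 (RPL41B, minus strand). The match was 281, 354, 470 and 344 bases before the start codon in that order.
RPL13A: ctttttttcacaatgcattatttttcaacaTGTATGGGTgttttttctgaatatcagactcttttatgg
RPL33A: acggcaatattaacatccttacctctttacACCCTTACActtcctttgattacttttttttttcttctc
RPL33B: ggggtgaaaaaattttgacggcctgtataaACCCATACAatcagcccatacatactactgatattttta
RPL41B: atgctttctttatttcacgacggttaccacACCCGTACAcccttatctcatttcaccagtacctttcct

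The 35 genes with the letters had a median log2FC of -1.37 in Spt4-AA cells and -2.57 in wild type cells, and the 41 without them -1.29 and -2.48. The strain difference upon stress had a median of 1.18 with the letters and 1.24 without. The letters AGGGG of the stress response element, searched likewise on both strands, were found for 28.9% of the family's promoters and 34.1% of all. A match is a description of the letters only.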

How the data were processed

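Poly(A) RNA was sequenced as single-end reads of 50 bases. The authors mapped reads to sacCer3 with TopHat2 2.1.0, counted them per gene with featureCounts 1.5.1 (Ensembl R64 annotation; only uniquely mapping reads per the methods; the strand setting is not given in the sources used here), and deposited whole-number counts for 7126 genes without normalization or pooling. Of the gene IDs, 6048 matched the RefSeq R64 reference used for names, positions and sequences.

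All 12 libraries were fitted in 1 model with edgeR 4.0.16 (R 4.3.3; TMM; filterByExpr, 6040 genes; robust quasi-likelihood test; 1 coefficient per group). P-values were adjusted by Benjamini-Hochberg over all genes tested, with a threshold of 0.05, and 2-fold calls also needed a log2 fold change of 1 or more in size. Standard errors are the log2 fold change over the square root of F. The ratio of paralogs was log2((A + 0.5)/(B + 0.5)) of the counts, tested with limma 3.58.1 over 61 pairs. Unique windows of 50 bases were counted in the R64 genome and across junctions. Both fits were tested on simulated data.

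The members and all lists were chosen with earlier results of these data known. Named genes are the 4 lowest and 4 highest log2 fold changes in each comparison, genes over 1 from the family's median in a response, the 4 pairs with the largest change of ratio in each comparison, and the 3 most and least equal pairs. A gene and its pair are not reported here. Alternatives were RLE size factors, library totals, ENO1 scaling, DESeq2 1.42.0, other filters, the replicate block, a term for the library numbers, fits on only the groups compared, unique windows, other weights and pseudocounts for pairs, each library left out in turn, and a coding-length trend. The precision of a value reflects counting error and replicates.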

Additional observations from a re-analysis of the deposited data

Results flagged for a closer look

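Between the strains, the response to osmostress differed for 74 of the 76 large-subunit genes by the test of the difference itself (edgeR). Each had the higher log2 fold change in Spt4-AA cells, and 15% of all genes tested differed in this direction. Among the genes named, the difference in log2 fold change, Spt4-AA minus wild type, was 2.79 for RPL39, 2.07 for RPL41B and 1.94 for RPL22B. It was 0.97 for RPL36A, 0.96 for RPL19A and 0.89 for RPL24B. With the term for the library numbers, the family's median difference was 0.73, against 1.27 in the main fit. The difference was then 1.07 for RPL39, 1.52 for RPL22B, 0.60 for RPL36A and 0.52 for RPL19A. For RPL41B and RPL24B it was 0.37 and 0.45.

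The shift of the ratio of copy A to copy B upon osmostress differed between the strains for 6 of the 33 pairs (limma). Of all 61 pairs 18% passed, so this count was near the share of all pairs. RPL1, RPL12 and RPL27 are named here because they were among the 6. The difference on the log2 scale was 0.75 for RPL15, 0.43 for RPL12, -0.27 for RPL1, -0.33 for RPL27 and -0.58 for RPL31. The RPL27 call was close to the threshold (limma, adjusted p = 0.0484). With the term, which leaves 1 stressed Spt4-AA library, only effect sizes are given here, and they do not show that a call held. The difference was then 0.69 for RPL15, 0.29 for RPL12, -0.24 for RPL1, -0.36 for RPL27 and -0.79 for RPL31. For RPL12, whose copies encode a protein at the base of the ribosomal stalk, copy A gave 44.2, 47.1 and 42.1% of the pair's reads in stressed Spt4-AA cells, against 38.5, 36.4 and 37.3% in stressed wild type cells. For RPL1 copy A gave 51.2, 50.8 and 51.9% in stressed Spt4-AA cells, against 54.9, 56.1 and 55.5% in stressed wild type cells. In this pair few windows tell the copies apart.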

How the results depend on the processing

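The family's direction was the same under every alternative run in the responses of both strains and in the strain difference upon stress. Scaling by library totals moved the median of all genes to 0.16 in the Spt4-AA response and to 0.38 in the wild type response, and ENO1 scaling moved it to -0.81 and -0.49 for these responses. The family's median in the Spt4-AA response was -2.22 with ENO1, and in the wild type response -2.23 with totals and -3.09 with ENO1, while its distance from the median of all genes in the wild type response was -2.60 with totals and -2.61 with ENO1. With the term for the library numbers, which leaves 1 stressed Spt4-AA library, the median was -1.83 in the Spt4-AA response, 0.68 between the stressed strains and 0.73 for the difference in response, 14 pairs were shifted in Spt4-AA cells, and RPL41B and RPL39 turned to -0.95 and -1.34 in the Spt4-AA response. Leaving out 1 library at a time gave 0 to 3 large-subunit genes higher in the Spt4-AA response, 5 to 11 pairs that differed between the stressed strains and 3 to 11 pairs for the difference of the shifts. These alternatives use fewer samples, and the cause of each change was not tested. Of the other values, 426 counts and medians stayed within their limits. For a median the limit was the replicate SD of the family's median, 0.10 to 0.49 by comparison. A count could lose several calls and still be within its limit. Values of single genes and pairs kept their direction and side of the threshold in 1229 cases. A further 12 changed sign without being called under either setting (5 of RPL39, RPL41A and RPL41B in the Spt4-AA response and 7 between the unstressed strains), 59 lost a call and 6 gained 1.

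Replicate numbers did not pair the samples: the correlation of same-numbered samples ran from -0.44 to 0.42 and was over 0.1 in 9 of 18 cases. With the replicate number as a block, 73 genes were lower in the Spt4-AA response, 75 were lower in the wild type response, 75 were higher between the stressed strains and 73 differed in response, and 20 and 22 pairs were shifted in these strains. Depth limits values of genes with few counts, such as RPL22B. For pairs with few unique windows, such as RPL1, RPL35, RPL4 and RPL41, the limit is the assignment of reads between the copies.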
